A study of Rattus norvegicus with 9 samples.

Results

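A set of 10 genes of the IL-6 family was examined across SASCs, PASCs, and EASCs, mesenchymal stem cells of the rat from subcutaneous, perirenal, and epididymal fat. They are the ligands Il6, Il11, Lif, and Osm, the receptor chains Il6st, Il6r, Lifr, and Osmr, the transcription factor Stat3, and the feedback inhibitor Socs3, found in the table by their gene symbols. All 10 were found among the 35362 genes of the deposited table, and all 10 were among the 14770 genes that could be tested. The cells came from male Sprague Dawley rats aged 6 weeks, with subcutaneous fat taken from the groin, were grown in high glucose medium with fetal bovine serum, and were collected at passage 3. No sample was treated. There were 9 samples, 3 in each group, and the protocol gives 6 wells in each group without stating which wells or rats were sequenced, so p-values measure the spread between these samples, which may be technical.

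Cytokines of the IL-6 family share the receptor subunit gp130, encoded by Il6st. IL-6 and IL-11 reach gp130 by way of their own receptors, Il6r and Il11ra1, while leukemia inhibitory factor (LIF) uses LIFR together with gp130, and oncostatin M uses OSMR or LIFR with gp130. The receptors carry JAK kinases that phosphorylate STAT3, and STAT3 switches on Socs3, whose protein binds gp130 and the kinases and dampens the signal. In fat, stromal cells are a known source of IL-6, and oncostatin M and IL-11 are known to inhibit the formation of adipocytes.

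Total counts ranged from 17591916 to 30299032 per sample. The share of ribosomal RNA genes was 10.4 to 15.5% for SASCs, 22.4 to 32.9% for PASCs, and 15.9 to 40.3% for EASCs, so counts are given as CPM, the counts scaled to a common library total after TMM, a scaling that depends little on a few abundant genes. Summed markers of stromal stem cells were at 14483 to 15352 CPM for SASCs, 20912 to 25404 for PASCs, and 24410 to 26942 for EASCs, with none of the 10 at 0. Most of this sum was the collagen gene Col1a1, with means of 10698, 19134, and 20332 CPM, while 5 of the 10 markers were higher and 4 lower than in SASCs in either comparison, in which 69.7% (EASCs) and 69.2% (PASCs) of all genes passed the test defined below. Pdgfra, a receptor that marks stromal progenitors, was among the lower ones, at 1543 CPM in SASCs against 278 in PASCs and 235 in EASCs. Markers of other cells were also present: mesothelial ones at 18.6 to 20.2 CPM for SASCs, 95.1 to 102 for PASCs, and 130 to 142 for EASCs, endothelial ones at 54.9 to 56.2, 13.9 to 17.0, and 37.9 to 40.8, leukocyte ones at 51.8 to 58.9, 127 to 133, and 187 to 201, and smooth muscle ones at 157 to 169, 2726 to 3011, and 5978 to 6365 CPM. Acta2 and Tagln made up most of the smooth muscle sum, and Rgs5 of that list went the other way. Rgs5 was at 1.25 CPM in SASCs, 0.0759 in PASCs, and 0.169 in EASCs. In the endothelial list Tek went against the sum, at 2.55 CPM in SASCs, 8.30 in PASCs, and 8.08 in EASCs. The mesothelial marker Krt18 was at 0 in SASCs, and Krt19 in PASCs. The part of these other cells in the results was not tested. In bulk RNA, fewer cells of a type cannot be told apart from less RNA per cell. A log2 fold change is given as the first group minus the second, with its standard error (SE) and the Benjamini-Hochberg adjusted p-value of edgeR's quasi-likelihood test. A gene passed when this p-value was under 0.05, and was a DEG when it passed with more than a 2-fold change.

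Il6, all receptor chains but Osmr, and Socs3 were several times lower in PASCs and EASCs than in SASCs, while Il11, Lif, and Osm were higher. Of the 10 genes, 8 were DEGs between EASCs and SASCs, 3 upregulated and 5 downregulated. Among all genes tested, 27.8% were DEGs in this comparison, 13.6% upregulated and 14.2% downregulated. Between PASCs and SASCs 7 were DEGs, 2 upregulated and 5 downregulated, where 26.9% of all genes were, 12.0% and 14.9% in these directions. In EASCs 9 of the 10 genes passed and 9 had no overlap between the samples of the groups, where 69.7% and 72.1% of all genes did. In PASCs all 10 passed and all 10 had no overlap, where 69.2% and 71.6% of all genes did, so that passing alone was common. The median log2 fold change of the 10 genes was -0.89 in EASCs and -1.15 in PASCs, against medians of 0.01 and -0.01 over all genes tested. Il11 and Osm reached the level required for testing only in PASCs and EASCs, and so had to be higher there to be counted at all. Both comparisons use the same samples of SASCs. The plot of CPM by sample shows the values behind these counts, and the plot of fold changes shows the comparisons.

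**Figure D1:**
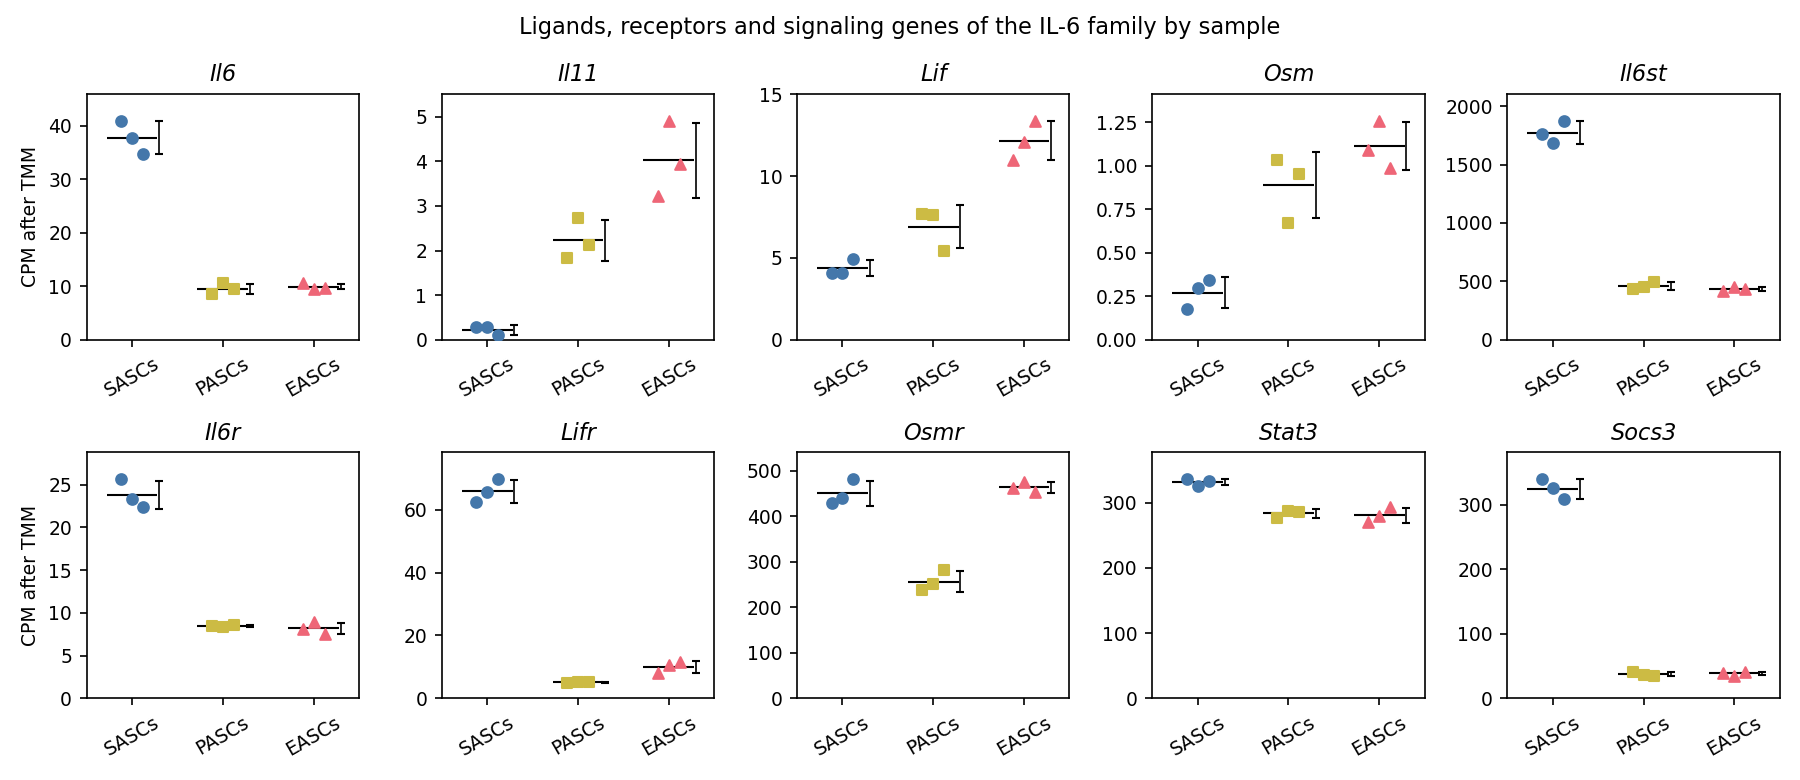
CPM after TMM of the 10 genes in each sample, on a linear axis from 0 that differs between panels, with points for samples, horizontal lines for the means of 3 samples, and bars for the SD. Il6, Il6st, Il6r, Lifr, and Socs3 were highest in all 3 samples of SASCs, and Il11, Lif, and Osm lowest there.

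**Figure D2:**
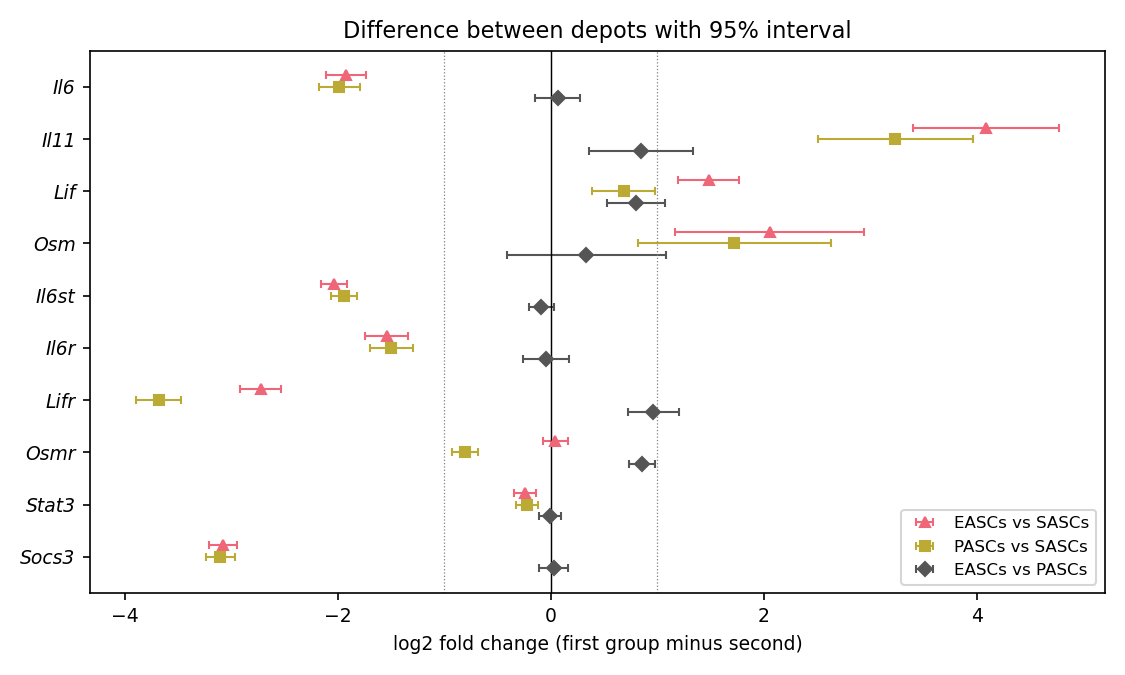
Log2 fold change of each gene in the 3 comparisons, first group minus second, with an approximate 95% interval from the standard error of edgeR's fit and dotted lines at a fold change of 2. Osmr in EASCs against SASCs lies at 0.04, while Lifr lies at -2.73 in EASCs and -3.69 in PASCs.

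Among the ligands, Il6 and Il11 changed in opposite directions. Il6 encodes interleukin 6, an inflammatory cytokine and inducer of acute phase proteins. It was at 40.9, 37.7, and 34.8 CPM in the samples of SASCs, 8.57, 10.5, and 9.48 CPM in PASCs, and in EASCs 10.6, 9.57, and 9.75 CPM. Every sample of SASCs was above every sample of the other groups, which overlapped each other. The log2 fold change was -1.93 in EASCs (SE 0.0972, adjusted p = 5.38e-16) and -1.99 in PASCs (SE 0.0978, adjusted p = 3.11e-16). In the table, Il6 lies on chromosome 4 from 3043231 to 3047807 of rn6, on the plus strand, inside the span given for Kmt2c, which runs from 82507 to 6294413 on the same strand. Kmt2c, a histone methyltransferase, was at 54.3 ± 3.36 CPM in SASCs, 34.9 ± 2.55 in PASCs, and 35.2 ± 2.20 in EASCs (SD, n = 3 each), with log2 fold changes of -0.64 in PASCs and -0.62 in EASCs. Whether reads were shared between the genes was not tested.

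Il11, the gene of interleukin 11, a cytokine of fibroblasts known for its induction by TGF-beta and its role in fibrosis, had 8, 7, and 2 counts in SASCs, 48, 73, and 40 in PASCs, and in EASCs 77, 121, and 88. As CPM these are 0.224 ± 0.110 in SASCs, 2.23 ± 0.456 in PASCs, and 4.02 ± 0.844 in EASCs (SD, n = 3 each), and the samples of the 3 groups did not overlap. SASCs were near the limit of detection, since 3 counts correspond to 0.104 to 0.146 CPM there, a limit that covers counting error only. For Il11 the log2 change was 4.08 in EASCs (SE 0.349, adjusted p = 4.95e-11) and 3.24 in PASCs (SE 0.371, adjusted p = 1.49e-08), the largest increases among the 10 genes. The table places Il11 at 72636959 to 72643255 of chromosome 1 of rn6, plus strand.

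The sequences before the starts of Il6 and Il11 are shown because the ligands moved in opposite directions. They also had the only RefSeq windows in which the start used was the annotated gene start. Windows (build GRCr8) were matched for 8 of the 10 genes, and in the 6 others of these the start used lies inside the annotated gene. The 250 bases upstream are chr4:5894576-5894825 on the minus strand for Il6 and chr1:78098372-78098621 on the plus strand for Il11, written 5′ to 3′ up to the base before the start. RefSeq places Il6 on the minus strand in this build and the table on the plus strand of rn6. Capitals mark matches on either strand to TGACGTCA (the CRE), TTGCNNAA (C/EBP), the NF-kB motif, and TGANTCA (AP-1).
Il6: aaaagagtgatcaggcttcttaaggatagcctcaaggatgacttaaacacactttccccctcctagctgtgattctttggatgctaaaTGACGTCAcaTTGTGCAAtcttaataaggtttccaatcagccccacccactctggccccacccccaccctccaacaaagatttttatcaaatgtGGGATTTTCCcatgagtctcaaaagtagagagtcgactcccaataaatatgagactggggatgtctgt
Il11: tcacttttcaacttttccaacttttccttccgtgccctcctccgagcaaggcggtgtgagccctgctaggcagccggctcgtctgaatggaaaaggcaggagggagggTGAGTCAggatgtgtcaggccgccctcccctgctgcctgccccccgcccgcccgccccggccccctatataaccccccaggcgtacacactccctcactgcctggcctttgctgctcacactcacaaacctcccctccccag
The Il6 window held TGACGTCA from 162 to 155 bases before the start, a C/EBP match from 152 to 145, and an NF-kB match from 68 to 59. In the Il11 window an AP-1 match, TGAGTCA, stood from 142 to 136 bases before the start. None of the matches overlapped another. Of the upstream windows of 33469 genes, 1.59% held the CRE, 9.22% the C/EBP motif, 1.08% the NF-kB motif, and 6.34% the AP-1 motif. The STAT motif TTCNNNGAA, which 7.67% of the windows held, was not in these letters of either gene.

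Lif, the gene of leukemia inhibitory factor, was at 4.10, 4.07, and 4.93 CPM in SASCs, 7.69, 7.63, and 5.40 in PASCs, and in EASCs 11.0, 12.1, and 13.4. The groups did not overlap, although the lowest sample of PASCs came close to the highest of SASCs. Expressed as a log2 fold change, it was 1.48 in EASCs (SE 0.147, adjusted p = 9.16e-10) and 0.68 in PASCs (SE 0.153, adjusted p = 3.09e-04). The change in PASCs did not pass without TMM, where it was 0.34 (adjusted p = 0.154) and the median of all genes was -0.33.

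Osm, the gene of oncostatin M, a cytokine known chiefly from leukocytes, had the lowest level of the 4 ligands in EASCs and PASCs. It had 5, 7, and 7 counts in SASCs, 27, 18, and 18 in PASCs, and in EASCs 26, 31, and 22. The groups of PASCs and EASCs, at 0.886 ± 0.189 and 1.11 ± 0.137 CPM, were above SASCs at 0.271 ± 0.0870 CPM (SD, n = 3 each), and PASCs and EASCs overlapped. On the log2 scale the change was 2.05 in EASCs (SE 0.452, adjusted p = 2.43e-04) and 1.72 in PASCs (SE 0.463, adjusted p = 0.00182). Of 14 leukocyte markers, 13 were in the table and 9 were tested, and all 9 were higher than in SASCs in both groups, as were 35.5% of all genes in EASCs and 34.6% in PASCs. Their median log2 fold changes were 2.01 in EASCs and 1.25 in PASCs. The T and B cell markers Cd3e and Cd79b were at 0 in every sample, while the macrophage receptor Csf1r was at 3.54 CPM in SASCs, 12.6 in PASCs, and 15.5 in EASCs. The part of these markers in the level of Osm was not tested. Osm and Lif are neighbours on the plus strand of chromosome 14, at 84457487 to 84469426 and 84492909 to 84500550 of rn6, 23.5 kb apart with 0 genes of the table between them.

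Among the receptor chains, Il6st, Il6r, and Lifr were downregulated in PASCs and EASCs, whereas Osmr passed as lower in PASCs but did not pass in EASCs. Il6st, at 44279206 to 44319427 of chromosome 2 of rn6, plus strand, was at 1765, 1682, and 1874 CPM in SASCs. It was at 436, 448, and 498 CPM in PASCs and in EASCs 416, 449, and 434 CPM, so that PASCs and EASCs overlapped and every sample of SASCs stood above them. The corresponding log2 values were -2.03 in EASCs (SE 0.0623, adjusted p = 6.46e-21) and -1.95 in PASCs (SE 0.0621, adjusted p = 1.78e-20).

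Il6r, the receptor chain specific to IL-6, was at 25.6, 23.3, and 22.4 CPM in SASCs, 8.45, 8.34, and 8.53 in PASCs, and in EASCs 8.08, 8.88, and 7.56. PASCs and EASCs overlapped, and both were below SASCs. It was 2.91 times lower in EASCs, a log2 change of -1.54 (SE 0.102, adjusted p = 2.37e-13), and 2.82 times lower in PASCs (SE of the log2 change 0.102, adjusted p = 4.26e-13). Il6r lies on the minus strand of chromosome 2 from 189196338 to 189255986 of rn6.

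Lifr had 1798, 1546, and 1428 counts in SASCs, 129, 140, and 98 in PASCs, and in EASCs 189, 259, and 257. These correspond to 65.9 ± 3.61 CPM in SASCs, 5.12 ± 0.161 in PASCs, and 9.97 ± 1.85 in EASCs (SD, n = 3 each), with no overlap between any of the groups. Lifr was 12.9 times lower in PASCs, a log2 change of -3.69 (SE 0.107, adjusted p = 2.06e-21), and 6.62 times lower in EASCs, a log2 change of -2.73 (SE 0.0976, adjusted p = 2.22e-19). Lifr shares 4636 bases with LOC103691478 on the other strand, a gene that reached at most 29 counts in any sample.

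Osmr was at 429, 439, and 481 CPM in SASCs, 237, 251, and 282 in PASCs, and in EASCs 461, 475, and 452. SASCs and EASCs overlapped, and all samples of PASCs were below them. In EASCs the 95% interval of the log2 fold change ran from -0.08 to 0.16. In PASCs the log2 fold change was -0.81 (SE 0.0622, adjusted p = 5.02e-12), under the fold change of a DEG. With total counts in place of TMM, Osmr stood at -0.35 in EASCs (adjusted p = 0.0534), while the median over all genes moved to -0.39. In PASCs it then stood at -1.13 (adjusted p = 5.03e-11), past the fold change of a DEG, with a median over all genes of -0.33. Osmr and Lifr are 262 kb apart on chromosome 2 of rn6, on opposite strands with 2 genes of the table between them. They lie at 56107491 to 56162950 and 56424918 to 56489346.

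Compared per length, as CPM per kilobase of the gene length in the table, Il6st was the most abundant receptor chain in SASCs at 203 ± 11.0, followed by Osmr at 72.6 ± 4.41, Il11ra1 at 21.8, Lifr at 8.80 ± 0.482, and Il6r at 3.56 ± 0.247 (SD, n = 3). In EASCs the order of the first pair was reversed, with Osmr at 74.7 ± 1.90 and Il6st at 49.7 ± 1.86. PASCs had Il6st at 52.8 ± 3.77 and Osmr at 41.4 ± 3.70. Among these 5 chains Lifr and Il6r were the lowest in PASCs and EASCs, at 0.683 ± 0.0215 and 1.26 ± 0.0143 in PASCs and 1.33 ± 0.247 and 1.22 ± 0.0992 in EASCs, where the last pair did not differ beyond the spread. On the same scale the ligands were lower than Il6st and Osmr in every group. Il6 was at 36.1 in SASCs, 9.12 in PASCs, and 9.53 in EASCs, and Lif at 1.65, 2.60, and 4.58. Il11 was at 0.134, 1.33, and 2.40 CPM per kilobase, and Osm at 0.0744, 0.243, and 0.305.

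**Figure D3:**
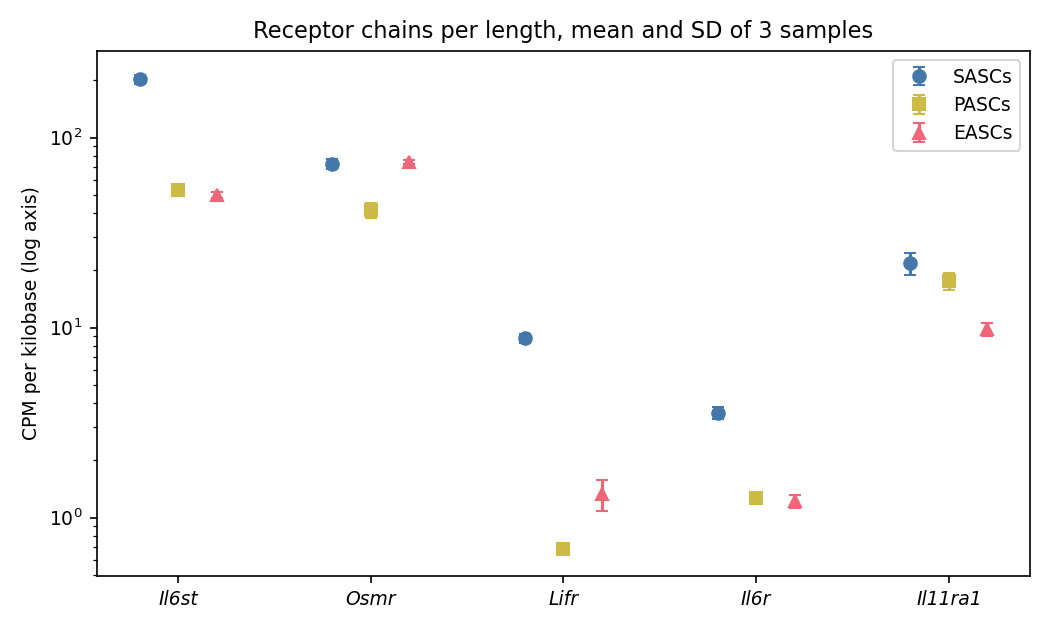
Levels of the receptor chains Il6st, Osmr, Lifr, Il6r, and Il11ra1 as CPM per kilobase of gene length, on a log axis, with the mean and SD of 3 samples in each group. Il6st stood above Osmr in SASCs, at 203 against 72.6, and below it in EASCs, at 49.7 against 74.7.

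The balance of OSMR and LIFR, the chains that join gp130 for oncostatin M, was compared as the ratio of Osmr to Lifr within each sample, which does not depend on scaling. Per length, Osmr exceeded Lifr 8.30, 8.10, and 8.34 times in SASCs, 58.0, 58.0, and 65.6 times in PASCs, and 70.5, 54.8, and 47.6 times in EASCs. SASCs were below all other samples, and PASCs and EASCs overlapped. The log2 ratio was 2.79 higher in EASCs and 2.87 higher in PASCs than in SASCs (exact two-sided permutation, p = 0.1 for either, the smallest that 3 samples against 3 allow). Over the 3 groups the exact permutation test of the F statistic gave p = 0.025, with 0.00357 the smallest that the design allows. Between EASCs and PASCs the log2 ratio differed by -0.09 (two-sided exact permutation test, p = 0.7). The ratio of Il6st to Osmr, chosen after the values had been seen and not tested, was 2.81 ± 0.106 per length in SASCs, 1.28 ± 0.0276 in PASCs, and 0.665 ± 0.0210 in EASCs (SD, n = 3 each).

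**Figure D4:**
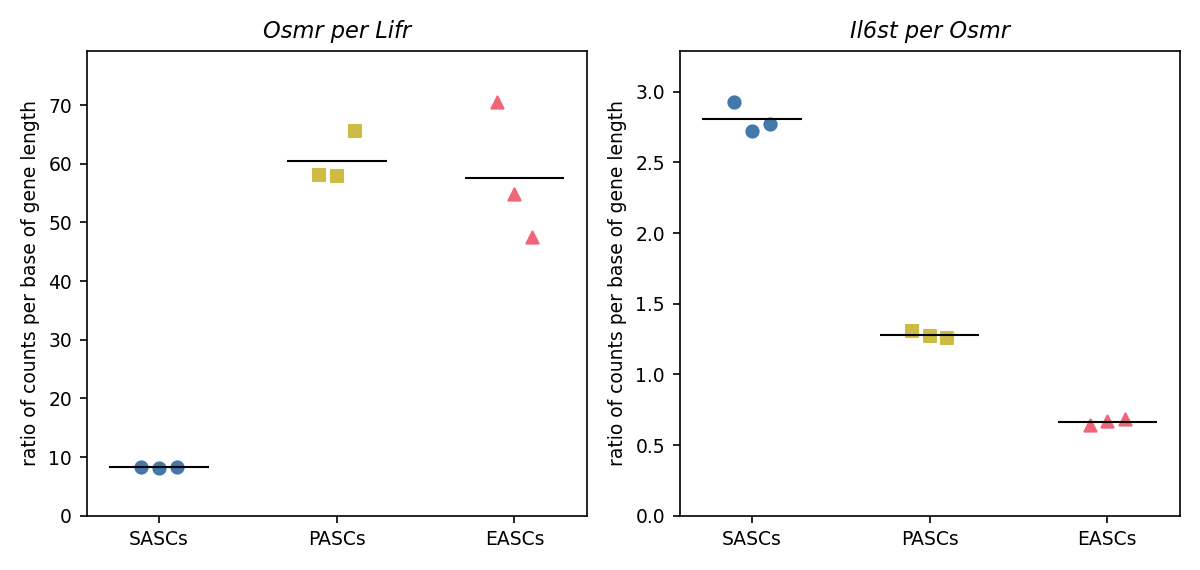
Ratio of Osmr to Lifr (left) and of Il6st to Osmr (right) in each sample, computed from counts per base of gene length, on linear axes from 0, with horizontal lines at the means of 3 samples. For Osmr to Lifr the samples of SASCs sit at 8.10 to 8.34 and all others at 47.6 or above, while for Il6st to Osmr the 3 groups are separate.

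Downstream of the receptors, Stat3 differed little between the groups and Socs3 differed strongly. Stat3 was at 336, 326, and 334 CPM in SASCs, 276, 288, and 286 in PASCs, and in EASCs 270, 279, and 293. Its samples in SASCs were all above those of the other groups, which overlapped. The fitted log2 change was -0.24 in EASCs (SE 0.0524, adjusted p = 2.19e-04) and -0.23 in PASCs (SE 0.0524, adjusted p = 3.97e-04). The gene is on the minus strand of chromosome 10 from 88790401 to 88842257 of rn6.

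Socs3 was at 340, 325, and 308 CPM in SASCs, 41.2, 36.6, and 35.2 in PASCs, and in EASCs 39.9, 35.2, and 40.2. No sample of PASCs or EASCs came near those of SASCs, and the samples of PASCs and EASCs overlapped. As a log2 fold change this was -3.08 in EASCs (SE 0.0676, adjusted p = 3.55e-24) and -3.11 in PASCs (SE 0.0678, adjusted p = 4.25e-24), that is 8.45 and 8.61 times lower. Socs3 is encoded on the minus strand of chromosome 10 from 106973863 to 106976969 of rn6.

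EASCs and PASCs, compared directly, differed in 4 of the 10 genes, all higher in EASCs, and the same number had no overlap between the groups. Of all genes tested 30.7% passed, 16.1% higher and 14.5% lower, and 41.2% had no overlap. Lifr was higher on the log2 scale by 0.96 (SE 0.122, adjusted p = 4.23e-07) and Osmr by 0.85 (SE 0.0622, adjusted p = 1.13e-11). Lif was higher by 0.80 (SE 0.139, adjusted p = 4.74e-05) and Il11 by 0.85 (SE 0.248, adjusted p = 0.00971). The difference in Il11 did not pass without replicate 1 of PASCs, at 0.72 (adjusted p = 0.0623), or without replicate 2 of EASCs, at 0.68 (adjusted p = 0.0897). None of the 10 genes was a DEG in this comparison, in which 7.39% of all genes were: 0 had more than a 2-fold change at an unadjusted p-value under 0.05, and 0 were DEGs by DESeq2. For the other genes the 95% intervals of the log2 fold change were -0.15 to 0.27 for Il6, -0.21 to 0.03 for Il6st, -0.26 to 0.17 for Il6r, -0.12 to 0.09 for Stat3, -0.11 to 0.16 for Socs3, and -0.41 to 1.08 for Osm, whose counts were the lowest.

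Of 12 further ligands and receptors of the family, 7 had enough counts to be tested. In EASCs 3 were higher than in SASCs, 2 lower, and 2 did not pass, and in PASCs 1 was higher, 2 lower, and 4 did not pass. At an adjusted p-value under 0.05, 35.5% of all genes were higher and 34.3% lower in EASCs, and 34.6% were higher and 34.6% lower in PASCs. Il11ra1, the receptor of IL-11, changed in the direction opposite to Il11. It was at 55.2 ± 7.31 CPM in SASCs, 44.6 ± 4.61 in PASCs, and 24.9 ± 2.00 in EASCs (SD, n = 3 each), with log2 fold changes of -1.15 in EASCs and -0.31 in PASCs (adjusted p = 8.24e-12 and 0.00266), where the samples of PASCs and SASCs overlapped. Ebi3, a subunit of IL-27, was the only DEG of the 7 between EASCs and PASCs, where 7.39% of all genes were DEGs, at 1.69 against 0.497 CPM (log2 fold change 1.77, adjusted p = 3.77e-04). Il27ra, the receptor chain of IL-27, and Ctf1, the gene of cardiotrophin 1, passed in EASCs against SASCs, at 0.856 against 0.248 CPM and at 1.33 against 0.636 CPM, with adjusted p = 0.00276 and 0.0168. Il27ra reached the level required for testing in 6 samples, all 3 of EASCs, replicates 1 and 3 of PASCs, and replicate 2 of SASCs. Ctf1 was no longer past the threshold with SASCs replicate 1 or 3 or EASCs replicate 2 or 3 left out (adjusted p = 0.0503 to 0.0647), or when scaled by total counts, at 0.65 (adjusted p = 0.189).

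Il31ra, which pairs with OSMR as the receptor of IL-31, was below the level required for testing. It had 13, 18, and 6 counts in SASCs and 0 in each of the 6 other samples. Its mean of 0.503 ± 0.240 CPM (SD, n = 3) in SASCs was at least 3.91-fold higher than in PASCs and at least 3.96-fold higher than in EASCs, taking 3 counts per library as the limit. Cntfr, the receptor of ciliary neurotrophic factor, had at most 5 counts in any sample, and Il31 had 0 counts in every sample.

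Of 15 kinases, other STATs, and adaptors, 14 were tested. In EASCs 4 were higher and 8 lower than in SASCs, and in PASCs 3 were higher and 7 lower, with median log2 fold changes of -0.24 and -0.26. Of all genes, 69.7% passed in EASCs and 69.2% in PASCs, and 27.8% and 26.9% were DEGs, against 1 of 14 here. Jak2, a kinase bound to gp130, was the only DEG of this list in both comparisons, at 130 ± 5.80 CPM in SASCs, 55.8 ± 3.36 in PASCs, and 59.4 ± 4.51 in EASCs (SD, n = 3 each). Jak2 changed by a log2 value of -1.13 in EASCs and -1.22 in PASCs (adjusted p = 6.11e-15 and 1.27e-15). Jak1, the main kinase of gp130 signaling, changed by -0.70 in EASCs and -0.91 in PASCs (adjusted p = 1.05e-11 and 4.67e-14). Stat2 changed by -0.81 and -0.95, Stat5a by -0.64 and -0.58, and the adaptor Gab1 by -0.54 and -0.63, all with adjusted p-values under the threshold. Scaled by total counts, which moved the median of all genes to -0.39 in EASCs and -0.33 in PASCs, the list held 4 DEGs in EASCs and 3 in PASCs, with Jak1 and Stat2 added in both and Stat5a in EASCs. Between EASCs and PASCs, 0 of these genes were DEGs by edgeR, against 7.39% of all genes, and 0 by DESeq2, while 3 had an unadjusted p-value under 0.05 at a smaller fold.

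All 14 other inhibitors of JAK-STAT signaling were tested. In EASCs 2 were higher and 5 lower than in SASCs, and in PASCs 3 were higher and 7 lower, where 69.7% and 69.2% of all genes passed in either direction. Cish and Socs2, relatives of Socs3 known as targets of STAT5, were downregulated, Cish from 16.2 ± 1.16 CPM in SASCs down to 2.68 ± 0.538 in PASCs and 3.67 ± 0.560 in EASCs, and Socs2 from 7.28 ± 0.927 to 2.71 ± 0.418 and 1.59 ± 0.332 (SD, n = 3 each). On the log2 scale the changes were -2.62 and -2.14 for Cish (adjusted p = 1.35e-14 and 3.53e-13) and -1.44 and -2.19 for Socs2 (adjusted p = 1.55e-07 and 2.39e-10), in PASCs and EASCs. Socs1 did not pass, at 0.601 CPM in SASCs, 0.706 in PASCs, and 0.622 in EASCs. Ptpn6, a phosphatase known chiefly from blood cells, was upregulated, with log2 fold changes of 2.05 in EASCs and 1.45 in PASCs (adjusted p = 2.99e-08 and 1.30e-05), as were the leukocyte markers above, whose part was not tested. Pias1 changed by -0.49 in EASCs and -0.36 in PASCs, and Pias3, a protein inhibitor of STAT3, by 0.65 and 0.26 (adjusted p = 1.20e-07 and 0.00779). Neither call of Pias3 held when scaled by total counts, at 0.24 in EASCs and -0.06 in PASCs (adjusted p = 0.214 and 0.777), with medians over all genes of -0.39 and -0.33. In this list 0 genes were DEGs between EASCs and PASCs by edgeR or by DESeq2, where edgeR called 7.39% of all genes, while 6 had an unadjusted p-value under 0.05 at a smaller fold.

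Adam17 and Adam10, the proteases that cleave the IL-6 receptor from the cell surface, were both lower in PASCs and EASCs. Of all genes tested, 34.6% passed as lower in PASCs and 34.3% in EASCs. Adam17 was at 146 ± 1.16 CPM in SASCs, 54.8 ± 3.28 in PASCs, and 49.3 ± 2.78 in EASCs (SD, n = 3 each), with log2 fold changes of -1.41 in PASCs (adjusted p = 1.04e-17) and -1.56 in EASCs (adjusted p = 1.15e-18). Adam10 changed by -0.61 (adjusted p = 4.46e-09) and -0.66 (adjusted p = 8.18e-10).

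Of 30 genes known as targets of STAT3, 24 were tested. In EASCs 8 were higher and 14 lower than in SASCs, with 3 DEGs upregulated and 6 downregulated, and in PASCs 4 were higher and 17 lower, with 1 DEG upregulated and 8 downregulated. Of all genes, 35.5% were higher, 34.3% lower, and 27.8% DEGs in EASCs, and 34.6%, 34.6%, and 26.9% in PASCs. The median log2 fold changes were -0.29 in EASCs and -0.36 in PASCs. Serpina3n, an acute phase serine protease inhibitor, fell the most, from 219 ± 6.86 CPM in SASCs down to 15.1 ± 0.965 in PASCs and 12.2 ± 0.962 in EASCs (SD, n = 3 each). Serpina3n changed by -3.87 on the log2 scale in PASCs (adjusted p = 7.07e-26) and -4.17 in EASCs (adjusted p = 1.73e-26), and counts of Serpina3n may be shared with other members of this multigene family. Fos, an immediate early transcription factor, fell from 44.8 ± 0.305 CPM to 4.91 ± 0.632 in PASCs and 5.80 ± 0.533 in EASCs (SD, n = 3 each), and Hp, the gene of haptoglobin, from samples between 12.4 and 13.7 CPM to 1.66 ± 0.438 in PASCs and 4.60 ± 0.915 in EASCs. For Fos the log2 fold changes were -3.20 in PASCs and -2.95 in EASCs (adjusted p = 2.54e-20 and 8.67e-20). Hp was 7.64 and 2.84 times lower (adjusted p = 3.77e-14 and 2.18e-09).

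Birc5, the gene of survivin, which is also a gene of mitosis, went the other way, from 1.84 ± 0.252 CPM in SASCs up to 21.5 ± 1.88 in PASCs and 12.7 ± 1.09 in EASCs (SD, n = 3 each), with log2 fold changes of 3.53 (adjusted p = 1.53e-18) and 2.76 (adjusted p = 8.64e-16). Ccl2, the monocyte chemoattractant, was at 164 ± 0.718 CPM in SASCs, 83.6 ± 0.636 in PASCs, and 179 ± 8.21 in EASCs. The level of Ccl2 in EASCs exceeded that in PASCs by a log2 fold change of 1.10 (adjusted p = 2.14e-15). Lcn2, the gene of lipocalin 2, had 16, 8, and 7 counts in SASCs, 1, 3, and 2 in PASCs, and in EASCs 37, 19, and 40, with adjusted p = 0.00490 in PASCs and 0.00163 in EASCs. Lcn2 reached the level required for testing in 5 samples, all 3 of EASCs and none of PASCs among them, and so entered the test through the group where it was high. Between EASCs and PASCs, 9 genes of the list were higher and 5 lower, and the 5 DEGs, all higher in EASCs, were Lbp, Hp, Ccl2, Il4r, and Lcn2 with the limit above, of which Lbp and Il4r are named after their values were seen. Of all genes, 16.1% were higher, 14.5% lower, and 7.39% DEGs in that comparison.

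**Figure D5:**
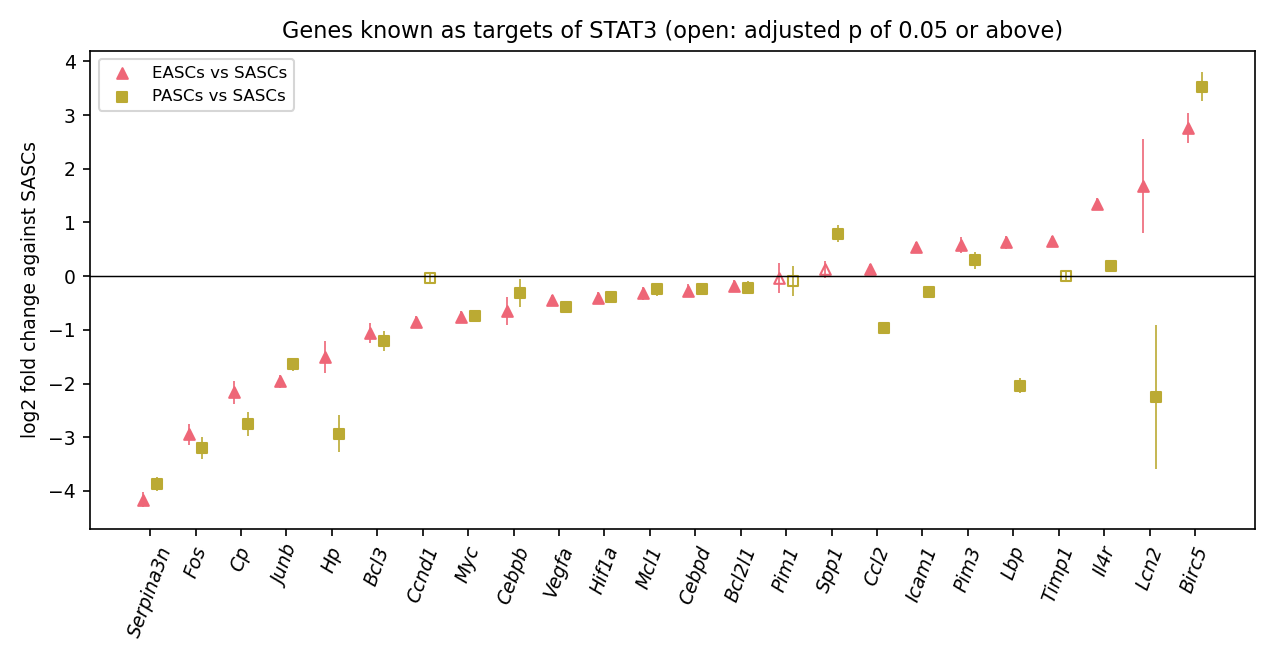
Log2 fold change against SASCs of the 24 tested genes known as targets of STAT3, in EASCs (triangles) and PASCs (squares), ordered by the value in EASCs, with approximate 95% intervals and open symbols for genes that did not pass the test. Serpina3n and Fos lie lowest and Birc5 highest in EASCs, and of the genes that passed in both, Lbp, Lcn2, Icam1, and Ccl2 lie above 0 in EASCs and below it in PASCs, although the value of Ccl2 in EASCs was -0.26 when scaled by total counts.

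The genes most like Il6st, Lifr, Osmr, and Socs3 over the 9 samples were found by Pearson's correlation of log2(CPM + 1) among 13440 genes with a mean of at least 1 CPM in some group. The samples fall into 3 groups and share their libraries and scaling, so that these values describe the order of the groups. Il6st was most like Robo2 (r = 0.999), Adam9 (0.999), and Acap2 (0.999), with 264 genes above a correlation of 0.99. Socs3 was most like Scara5 (0.999), a ferritin receptor, Cxcl13 (0.999), a chemokine, and Fgf23 (0.999), with 241 genes above 0.99, and Lifr was most like Lvrn (0.998), Pde3a (0.997), and LOC102552895 (0.997), with 96. Osmr had 1 gene above 0.99, the adhesion molecule Alcam (0.992), followed by the scavenger receptor Cd163 (0.987) and the protease inhibitor Timp3 (0.987).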

How the data were processed

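RNA of 9 samples at passage 3 was sequenced. The authors trimmed the paired-end reads with cutadapt and FastX-Toolkit, aligned them with TopHat to rn6, and deposited a table of whole-number counts per gene, which are not normalized. The submitters' processing notes name rn5, but the coordinates of the table fit chromosome lengths of rn6. The counting tool and the use of strand are not given in the sources used here. Metabolite data were not used here.

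Samples were grouped by their titles. One edgeR model (version 4.0.16, R 4.3.3) held all 9 samples, with TMM scaling and filterByExpr (a minimum count of 10, corresponding to 0.403 CPM, in 3 samples). It left 14770 of 35362 genes, over which p-values were adjusted within each comparison. The authors used DEGseq. Here edgeR's quasi-likelihood test was used, which takes the spread between samples into account. The common biological coefficient of variation was 0.0685. Within a group, libraries differed beyond counting noise (chi-square per degree of freedom of 5.93 or more). The script was tested on simulated data. Alternatives were DESeq2 1.42.0, its size factors in edgeR, total counts, other filters and thresholds, fits of only the 2 groups compared, a replicate block, and each sample left out. Removal of 7 rRNA genes was added after seeing the data.

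The 10 genes and all lists were chosen with earlier results of these data known. Named were the 10 genes, at most 5 genes with the largest change in each pathway list, Ccl2, the 3 genes most like Il6st, Lifr, Osmr, and Socs3, and cell markers beside a result. A gene that this rule selects is left out of the text. Il31ra, Cntfr, Il31, Socs1, Kmt2c, Lbp, Il4r, Icam1, the acute phase genes below the filter, and the genes overlapping Lifr were named after their values were seen. Intervals of 95% are normal approximations from the SE.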

Additional observations from a re-analysis of the deposited data

How the results depend on the processing

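DEGs among the 10 genes numbered 8 in EASCs and 7 in PASCs against SASCs with each sample left out in turn, and 0 to 1 between EASCs and PASCs. With a filter of at least 1 CPM in every sample of a group they numbered 7, 6, and 0, since Osm was no longer tested. Of the 13046 genes tested under that filter, 25.7%, 25.1%, and 7.01% were DEGs in the 3 comparisons. The numbers of the samples were not taken as pairs, because the study's methods describe no pairing. Same-numbered samples deviated from their group means with correlations of -0.030 to 0.071, and samples of different number with -0.127 to 0.089. With a replicate block the counts were 8, 7, and 0, and no count of a list or call of a named gene changed. Of 9 samples, 6 correlated best with their own number, a hint from the data and not from the design. Scaled by total counts, the 10 genes held 8 DEGs in PASCs, with Osmr added, and the kinases, STATs, and adaptors held 4 DEGs in EASCs and 3 in PASCs in place of 1 each, where 4775 and 4431 of all 14770 genes were DEGs. With no limit on the fold, genes passing in EASCs against SASCs were 12 in this list, 7 inhibitors, and 22 STAT3 targets, those in PASCs 10, 10, and 21, and those between EASCs and PASCs 2, 6, and 14, with 4 of the 10 genes and 3 other ligands and receptors, against 69.7%, 69.2%, and 30.7% of all genes. Above a 1.5-fold change the kinases, STATs, and adaptors held 5 in EASCs and 4 in PASCs and the STAT3 targets 14 in EASCs, while EASCs against PASCs gave 4 of the 10 genes, 2 other ligands and receptors, 2 inhibitors, and 11 STAT3 targets, against 43.4%, 43.4%, and 13.2% of all genes in the 3 comparisons. These counts follow from the looser threshold. The log2 Osmr to Lifr ratio with each sample left out differed from SASCs by 2.63 to 2.91 in EASCs and 2.81 to 2.90 in PASCs, and between EASCs and PASCs by -0.24 to 0.04.

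Of 507 log2 fold changes of the 10 genes under alternatives, 496 kept their direction and side of the threshold, 3 lost the call, and 8 changed sign without passing. Scaled by total counts, Il6 (-0.0068) and Socs3 (-0.050) changed sign between EASCs and PASCs, Osmr (-0.35) and Ccl2 (-0.26) in EASCs against SASCs, and Pias3 (-0.061) in PASCs against SASCs. With each sample left out, values between EASCs and PASCs that crossed 0 ran from -0.014 to 0.15 for Il6, -0.11 to 0.013 for Il6r, -0.040 to 0.014 for Stat3, -0.014 to 0.098 for Socs3, -0.17 to 0.033 for Stat5a, and -0.12 to 0.014 for Adam10. The cause of these changes was not tested. Il11 and Osm in SASCs, at 0.224 and 0.271 CPM, are limited by depth, and differences of a few counts could not be resolved.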

Other observations

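Several acute phase genes of the STAT3 target list were too low to be tested. Crp had 4, 9, and 1 counts in SASCs and at most 1 count in any other sample. Orm1 had 14, 3, and 7 counts in the samples of SASCs. In PASCs Orm1 had 6, 6, and 3 counts, and 0, 3, and 2 in EASCs. Fgg reached at most 8 counts, Fgb at most 3, and A2m had 0 counts in every sample.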
